A study of Mus musculus with 43 samples.

Results

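Adamts2, Agmat, Rrad and Baz1a name transcriptomic types of layer 2/3 (L2/3) intratelencephalic neurons in the adult mouse cortex, and these 4 genes of 56980 in the count table are described here. They were chosen by name, as markers of L2/3 subtypes. The libraries were made from GFP+ cells sorted from the somatosensory cortex of C57BL/6JRccHsd mice after in utero electroporation of a GFP plasmid, at embryonic day 19 (E19), postnatal day 4 (P4) and postnatal day 7 (P7). At E19 there were 4 libraries of each sex for WT, for Cux1 KO (germline Cux1 ΔC/ΔC, which die perinatally) and for Cux2 KO (germline Cux2-/-). At P4 there were 3 libraries of each sex for WT and for Cux2 KO. The 2 Cux1 KO libraries at P4 came from males only, from Cux1 f/Δ23 mice, which carry 1 floxed and 1 germline-deleted allele in every cell. There a CRE plasmid was electroporated together with a CRE-dependent GFP plasmid, so that the floxed copy was also lost and the genotype became Δ23/Δ23 in the electroporated cells alone. At P7 only WT cells were sequenced, from 2 females and 3 males. The allele, the plasmids and the heterozygous host therefore differ between the Cux1 KO groups, and the study also describes more death of Cux1 KO neurons than of WT neurons during dissociation; at P4 these cannot be told apart from each other.

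Adamts2 encodes a secreted metalloprotease that removes the amino-terminal propeptide of fibrillar procollagens. Agmat encodes agmatinase, which turns agmatine into putrescine, a polyamine. Rrad encodes a small GTPase of the RGK family, whose members bind calcium channel beta subunits and inhibit voltage-gated calcium channels. Baz1a encodes ACF1, the non-catalytic subunit that pairs with the ISWI ATPase SMARCA5 to space nucleosomes. CUX1 and CUX2 are homeodomain transcription factors of upper-layer neurons.

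In the GRCm39 build, Adamts2 (ENSMUSG00000036545) lies on the plus strand at chr11:50492787-50698400, with 24 merged exons of 9460 bp in all. Agmat (ENSMUSG00000040706) lies on the plus strand at chr4:141473983-141487526, with 6 merged exons of 3851 bp. Rrad (ENSMUSG00000031880) lies on the minus strand at chr8:105354695-105357990, with 4 merged exons of 1757 bp. Baz1a (ENSMUSG00000035021) lies on the minus strand at chr12:54939053-55061139, with 32 merged exons of 9273 bp. The exons of Rrad overlap those of the antisense lncRNA Gm33023 over 421 bp, which is 24.0% of their length, and the strand setting of the counting was not given in the sources used here, so reads in that stretch cannot be assigned to either gene with certainty. The overlaps of Adamts2 and Agmat with other genes were 0.888% and 1.06% of their exon length, and the largest for Baz1a, with 1700081N11Rik, was 6.85%.

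The promoter of Adamts2 is shown because Adamts2 was the member with a called difference between WT and a Cux genotype at E19. The sequence is the stretch of 250 bases upstream of the start site in RefSeq (build GRCm38.p6, an older build than that of the count table, plus strand, chr11:50601835-50602084). Capitals mark GGGCGG, the core of the GC box, on either strand (CCGCCC on the strand shown).
Adamts2: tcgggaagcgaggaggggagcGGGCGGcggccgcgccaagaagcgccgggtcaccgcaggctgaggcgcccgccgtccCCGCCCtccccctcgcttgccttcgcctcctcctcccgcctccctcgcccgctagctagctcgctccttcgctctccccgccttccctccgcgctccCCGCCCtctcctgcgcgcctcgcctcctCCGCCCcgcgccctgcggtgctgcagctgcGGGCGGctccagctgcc
The G and C content of this stretch was 78.0%, which was above that of 97.9% of the 32851 RefSeq promoters of the same length. GGGCGG occurred 5 times in it, counting both strands, and at least once in 32.7% of all promoters. ATCGAT, the core of the site that CUX homeodomains bind in vitro, was found in 0.728% of all promoters on either strand and in neither Adamts2 nor Agmat. CCAAT, the sequence that CUX proteins were first described to bind in competition with an activator, was found in 33.8% of all promoters and in neither of these genes. Of the 4 members, 2 (Adamts2 and Agmat) matched an entry in the promoter table; Rrad and Baz1a are named only. A match or its lack in this window describes these letters and not binding.

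The libraries held 13321095 to 20715732 counts at E19, 19499125 to 60559585 at P4 and 15312029 to 27633827 at P7. The counts over the whole of Cux1 and Cux2 were not lost in the KO libraries and are a weak check of the labels. At E19 Cux1 was at 291 to 340 CPM (the counts of a gene scaled to the TMM-normalised total of its library) in Cux1 KO females and 343 to 491 CPM in WT females, without overlap, and at 309 to 367 and 311 to 461 CPM in males. In males at P4 it was at 84.5 to 179 CPM in Cux1 KO and 90.5 to 161 CPM in WT. Cux2 was at 268 to 410 CPM in Cux2 KO and 330 to 507 CPM in WT at E19, and at 28.9 to 62.1 and 27.9 to 49.7 CPM at P4. The labelled cell type was checked against its markers, as sums of CPM over each list. The 12 upper-layer markers summed to 3601 to 5524 CPM at E19, 837 to 1375 CPM in WT and Cux2 KO at P4, and 496 to 685 CPM at P7. The 6 markers of all excitatory cortical neurons (among them Slc17a7 and Neurod6) summed to 906 to 1732 CPM at E19 and to 55 to 231 CPM in WT and Cux2 KO at P4, whereas the 10 markers of astrocytes and radial glia summed to 1552 to 2600 CPM and then to 4745 to 9037 CPM. The neuronal lists did not all move together: in WT and Cux2 KO at P4 against E19, the 4 markers of layer 4 neurons summed to 119 to 223 against 32.8 to 68.95 CPM, while the sums of deep-layer markers (369 to 590 against 565 to 785 CPM) and of interneuron markers (291 to 1174 against 250 to 966 CPM) overlapped. E19 was sequenced in one round and P4 with P7 in another, so stage and round cannot be told apart, and in such bulk RNA fewer cells of a type and less RNA per cell cannot be told apart either.

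**Figure D1:**
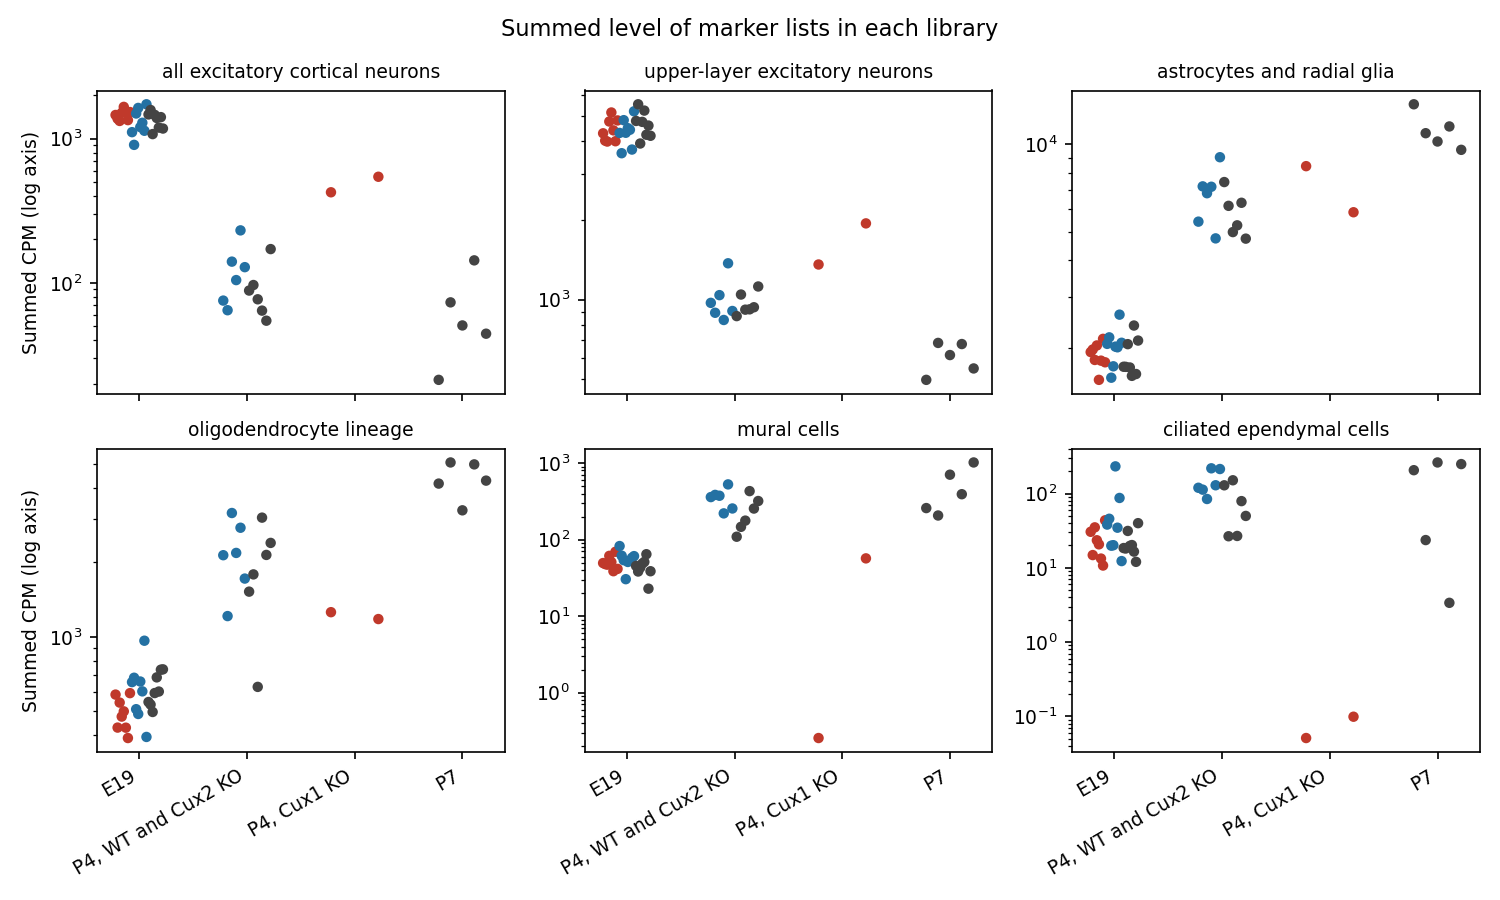
Summed level of marker lists in each library (CPM, log axis; 1 point per library), by stage, with the 2 Cux1 KO libraries at P4 set apart. Excitatory neuron markers fell from 906 to 1732 CPM at E19 to 55 to 231 CPM in WT and Cux2 KO at P4, while astrocyte and radial glia markers rose.

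Adamts2 was expressed at E19 and nearly absent at P4 and P7. At E19 the WT female libraries were at 57.7, 83.4, 59.7 and 76.5 CPM, and the WT male libraries were at 60.8, 57.3, 55.7 and 34.7 CPM. At P4 and P7 no library exceeded 1.88 CPM, so the E19 range and the later range did not overlap. The few later counts were uneven: 34 of the 36 counts in WT females at P4 came from replicate 3, the 9 in WT males at P4 from replicate 2 and the 121 in Cux2 KO males at P4 also from replicate 2, while the 3 WT males at P7 had 15, 18 and 49. The mean over both sexes in WT was 60.7 ± 14.6 CPM (SD, n = 8) at E19, 0.300 ± 0.596 CPM (n = 6) at P4 and 0.973 ± 0.814 CPM (n = 5) at P7. The log2 fold change of WT P4 over E19 was -8.15 (SE 0.791, adjusted p = 3.25e-07, edgeR's quasi-likelihood test with Benjamini-Hochberg adjustment), and that of P7 over E19 was -6.00 (adjusted p = 4.96e-08). With 1 library left out, P4 over E19 ran from -10.04 to -7.816 and P7 over E19 from -6.451 to -5.585. A gene was called where the adjusted p was under 0.05 and the absolute log2 fold change over 0.5 for comparisons within E19 or over 1 for those with a postnatal stage, the thresholds of the study's methods. By this rule 46.3% of all genes tested were called between WT P4 and E19, and 51.7% between P7 and E19. A called stage difference was thus common.

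Agmat was at the limit of detection in the whole series. It had 2 counts in 1 of 43 libraries, a WT E19 male library at 0.114 CPM, and 0 counts in the other 42, out of 1036195089 counts in all. A count of 0 allows levels up to 0.149 to 0.235 CPM in single libraries at E19, 0.0461 to 0.153 CPM at P4 and 0.108 to 0.194 CPM at P7 (3 counts, counting error only). No comparison could be tested for Agmat, whose groups could not be ordered.

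Rrad was low at every stage. At E19 the 24 libraries ranged from 0.221 to 2.59 CPM, and no group held more than 109 counts in all. The WT female libraries at E19 were at 1.67, 0.625, 2.59 and 1.80 CPM, and the WT males at 0.972, 1.10, 0.555 and 0.640 CPM. At P4 the WT females were at 0, 5.01 and 1.94 CPM, and the WT males at 2.36, 3.79 and 4.83 CPM. At P7 the females were at 7.51 and 2.07 CPM, and the males at 3.39, 2.25 and 4.89 CPM. These ranges overlapped between the stages. Rrad was higher at P7 than at E19 in WT (log2 fold change 1.81, SE 0.397, adjusted p = 8e-04), while P4 over E19 (1.33, SE 0.745, adjusted p = 0.127) and P7 over P4 (0.47, SE 0.889, adjusted p = 0.823) did not pass. Without the WT P4 female library that had 0 counts, P4 over E19 was 1.67 (adjusted p = 0.00317).

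In WT, Baz1a was expressed at all stages, with the highest mean at P4. The WT females at E19 were at 21.1, 17.9, 20.6 and 15.4 CPM, and the WT males at 22.8, 22, 18.3 and 20.7 CPM. At P4 the WT females were at 55.5, 32.6 and 38.2 CPM and the WT males at 30.8, 47.7 and 35.1 CPM, so that each of the 6 WT libraries at P4 was above each of the 8 at E19. At P7 the females were at 27.8 and 29.5 CPM and the males at 34.2, 19.5 and 30.8 CPM, of which 1 lay within the E19 range, 2 within the P4 range and 2 between them. The log2 fold change of P4 over E19 was 1.00 (SE 0.152, adjusted p = 3.16e-05) and lay at the fold threshold of 1: it fell below the threshold in 5 of 6 other analyses and in 6 of 14 fits that left out 1 library, with adjusted p-values of 0.000805 or less in each. P7 over E19 was 0.48 (SE 0.140, adjusted p = 0.00644), below the fold threshold, and P7 over P4 was -0.47 (SE 0.208, adjusted p = 0.216), where 2.29% of all genes were called.

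Per kilobase of exon, the order of the members differed between the stages in WT. At E19 the level of Adamts2 was 6.42 ± 1.54 CPM per kb, above Baz1a at 2.14 ± 0.266 and Rrad at 0.707 ± 0.409 CPM per kb (SD, n = 8). At P4 the level of Baz1a was 4.31 ± 1.04 CPM per kb, Rrad was at 1.70 ± 1.10 and Adamts2 at 0.0317 ± 0.0630 CPM per kb (n = 6). At P7 the levels were 3.06 ± 0.588 CPM per kb for Baz1a, 2.29 ± 1.28 for Rrad and 0.103 ± 0.0861 for Adamts2 (n = 5), and the ranges of mean ± SD of Baz1a and Rrad overlapped. Agmat was below 0.01 CPM per kb on average at E19, at 0.00371, and at 0 later.

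**Figure D2:**
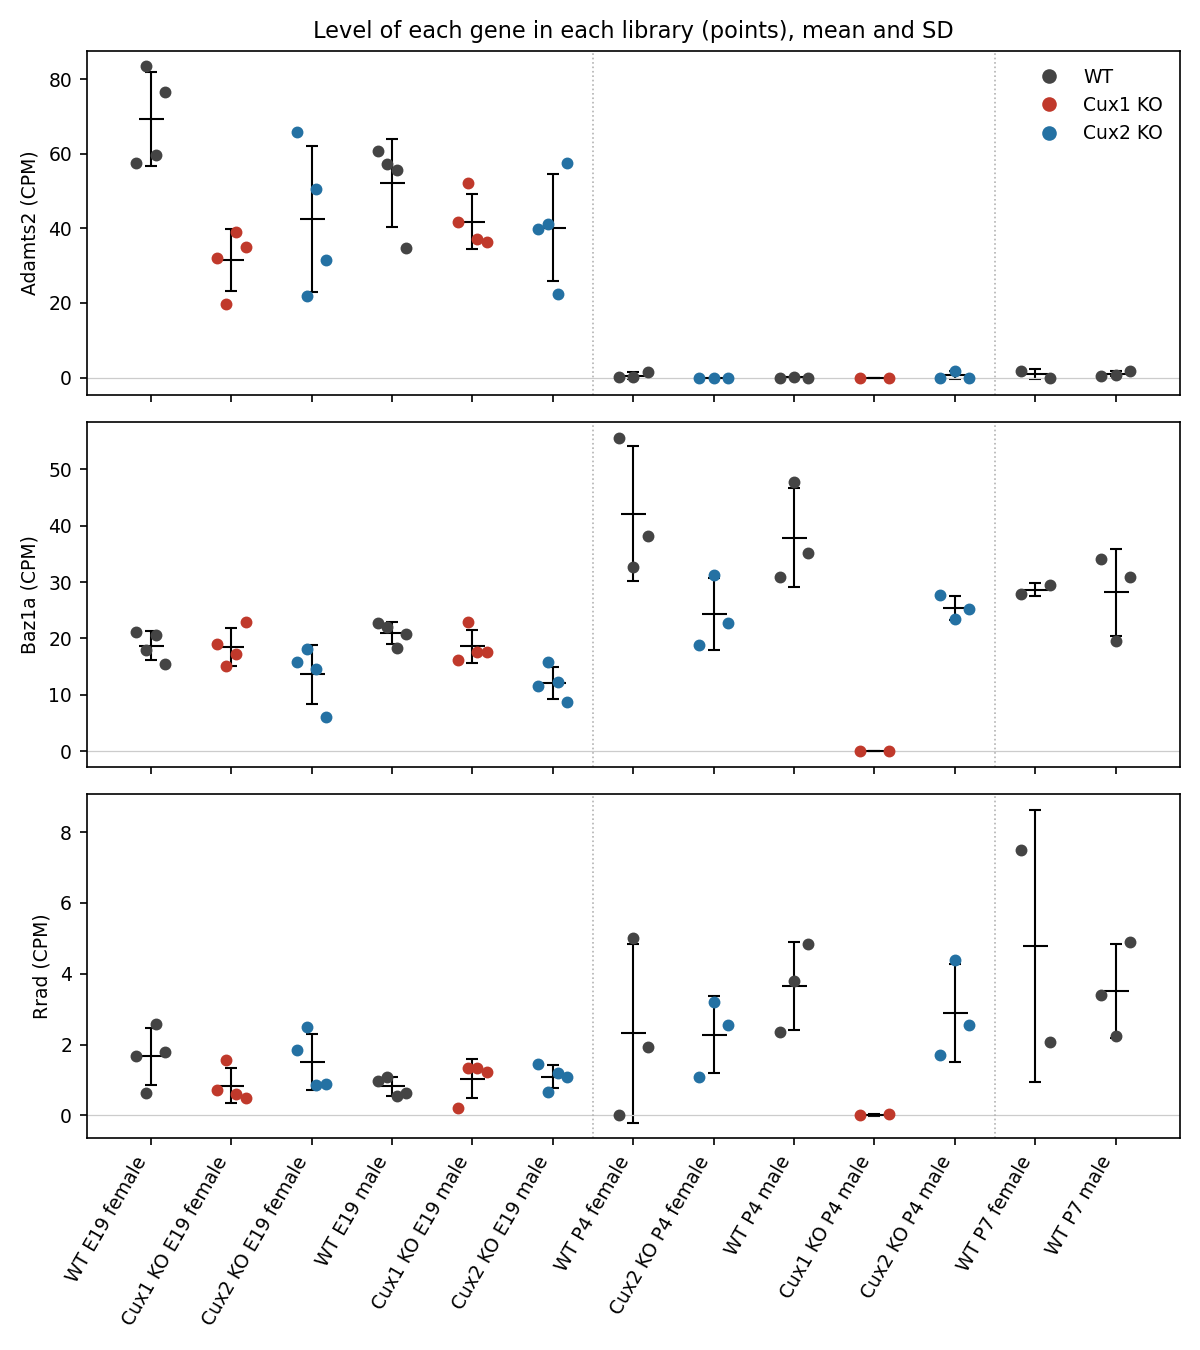
Level of Adamts2, Baz1a and Rrad in each library (CPM, 1 point per library, bars show the mean and SD of each group). Adamts2 is seen at E19 and stays at or below 1.88 CPM in every later library. Baz1a is above 15 CPM in all WT libraries but at 0.0510 and 0.0494 CPM in the Cux1 KO libraries at P4. Rrad is low throughout. Agmat, at 0 in 42 of 43 libraries, is not drawn.

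Of the 3 members tested in females at E19, 1, Adamts2, was called lower in Cux1 KO than in WT, where 0.0576% of all genes were called in either direction and 0.0115% were called lower. The Cux1 KO females were at 32.1, 19.7, 39.0 and 35.0 CPM, each below each of the WT females, which ranged from 57.7 to 83.4 CPM. The group means were 31.5 ± 8.34 CPM in Cux1 KO and 69.3 ± 12.6 CPM in WT (SD, n = 4 each). The log2 fold change was -1.14 (SE 0.183, 95% interval -1.50 to -0.786, adjusted p = 0.0431). This call stood close to its threshold: it held in 3 of 8 fits that left out 1 library and was lost without replicates 1, 3 or 4 of Cux1 KO or without replicates 2 or 4 of WT (adjusted p from 0.015 to 0.219 over the 8 fits), with log2 fold changes from -1.27 to -0.979. It was kept in 4 of 6 other analyses (adjusted p from 3.83e-07 to 0.31 over the 6), which were DESeq2 with no prior and with its prior, DESeq2 size factors and no filter. It was lost with the replicate number as a block (-1.16, adjusted p = 0.0866) and when all E19 groups shared 1 fit (adjusted p = 0.31).

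In males at E19, Adamts2 in Cux1 KO was at 41.7, 52.3, 37.1 and 36.2 CPM, within or near the WT male range of 34.7 to 60.8 CPM. The means were 41.8 ± 7.37 CPM in Cux1 KO and 52.1 ± 11.8 CPM in WT (SD, n = 4 each), and the log2 fold change was -0.34 (SE 0.169, adjusted p = 0.538), where 0.0979% of all genes were called. The difference between the female and the male effect was -0.81 on the log2 scale (SE 0.271, adjusted p = 0.962), so an effect that differs between the sexes was not shown; the same test called 0.0% of 18318 genes. In 1 fit over both sexes with sex as a term, Adamts2 was lower in Cux1 KO by a log2 fold change of -0.74 (SE 0.161, adjusted p = 0.0469), where 0.243% of all genes were called. This call held in 5 of 16 fits that left out 1 library (log2 fold change from -0.841 to -0.631, adjusted p from 0.00935 to 0.119), was kept in 3 of 6 other analyses, which were DESeq2 with no prior (adjusted p = 0.00126), DESeq2 with its prior and no filter, and was lost with DESeq2 size factors (0.052), the replicate block (0.061) and all groups in 1 fit (0.145).

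Of 14 marker sums, 1 separated Cux1 KO from WT in females at E19 and 2 in males. How often such sums separate by order alone was not counted. The sum that differed in females was that of intermediate progenitor markers. Their 6 genes summed to 834 to 929 CPM in Cux1 KO females and 648 to 745 CPM in WT females at E19, without overlap, and the male sums overlapped, at 659 to 847 and 584 to 762 CPM. Of the 5 tested, 0 were called in females, where 0.0576% of all genes were called, and 2 were called higher over both sexes, where 0.243% were: Eomes (log2 fold change 0.52, adjusted p = 0.0322) and Neurog2 (0.60, adjusted p = 0.024). The upper-layer marker sums overlapped, at 3987 to 4751 CPM in Cux1 KO and 3920 to 5524 CPM in WT females. All 12 of these markers, Cux1 among them, had a negative log2 fold change in females (median -0.234), while 6 were above and 6 below 0 in males (median -0.0261). In males the sums of the oligodendrocyte lineage (389 to 591 against 600.3 to 738 CPM) and of microglia (35.9 to 53.3 against 62.5 to 80.3 CPM) were below those of WT without overlap. Of 9 interneuron markers tested in males, 1 was called lower, where 0.0979% of all genes were called, with 1 above and 8 below 0 (median -0.242). In females 0 of 9 were called, also with 1 above and 8 below 0 (median -0.141), and the interneuron sums overlapped WT in both sexes. The part of these marker levels in the difference in Adamts2 was not tested.

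In Cux2 KO at E19, the Adamts2 values spread more. The females were at 65.9, 21.9, 50.5 and 31.5 CPM and the males at 39.8, 41.1, 22.5 and 57.5 CPM, and both ranges overlapped those of WT. The log2 fold changes over WT were -0.70 in females (SE 0.266, adjusted p = 0.973, edgeR; 0.0287% of all genes called), -0.39 in males (adjusted p = 0.736) and -0.55 over both sexes (SE 0.202, adjusted p = 0.435), none of them called. With 1 library left out, these values over WT ran from -1.001 to -0.4865 in females, -0.6057 to -0.1809 in males and -0.671 to -0.4332 over both sexes. Cux2 KO against Cux1 KO gave 0.44 in females (SE 0.286, 95% interval -0.121 to 1.00, adjusted p = 0.668) and -0.06 in males (SE 0.228, 95% interval -0.505 to 0.391, adjusted p = 0.937), where 1.34% and 0.378% of all genes were called, so the libraries of both KO genotypes were not told apart for Adamts2. The female value of Cux2 KO against Cux1 KO ran from 0.1447 to 0.6559 with 1 library left out. Between WT females and males the log2 fold change was 0.41 (SE 0.173, adjusted p = 0.992), where 0.0461% of all genes were called. In the order of group means at E19, from WT females through WT males, Cux2 KO females, Cux1 KO males and Cux2 KO males to Cux1 KO females, no neighbours differed beyond their spread.

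**Figure D3:**
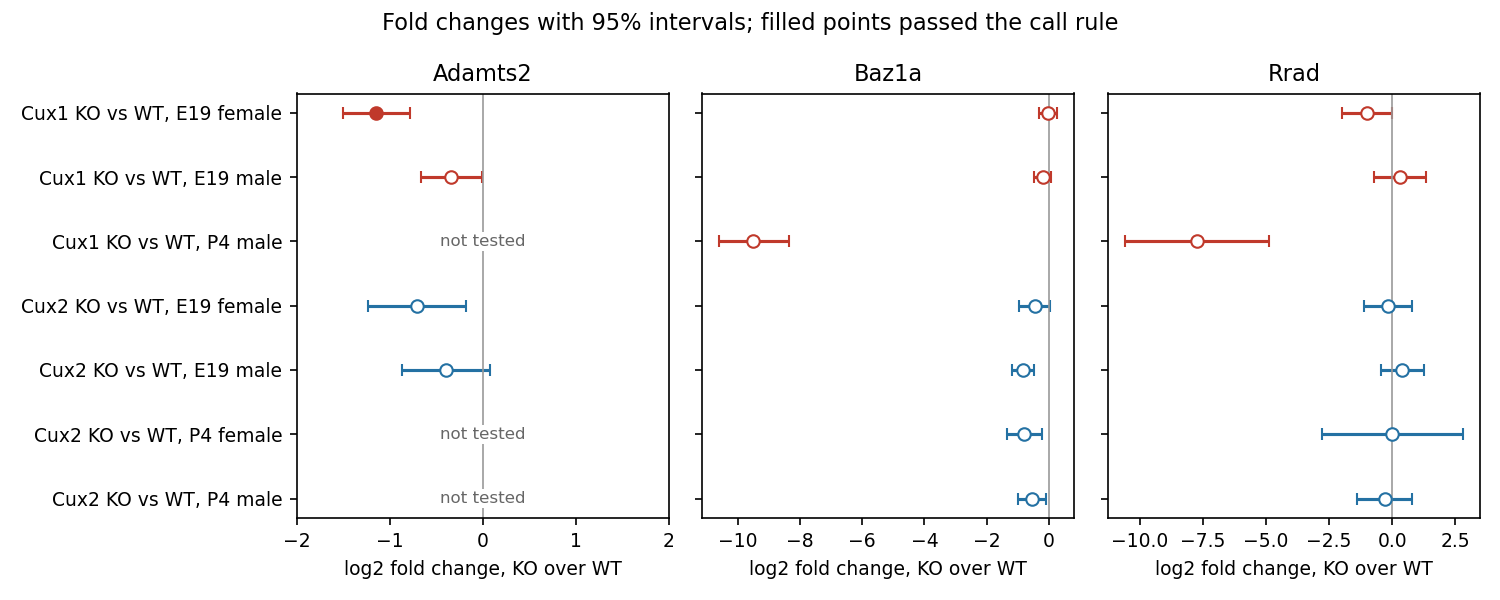
Log2 fold change of KO over WT for the tested members in each comparison (points), with 95% intervals as lines; filled points passed the call rule. Comparisons within 1 sex are drawn, and the filled point is that of Adamts2 in Cux1 KO females at E19, at -1.14.

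In the same female comparison of Cux1 KO with WT, in which 0.0576% of all genes were called, no call is what most lists of this size would show, so the other genes of the pathway are given by their values. Of the 8 procollagen N-proteinases and fibrillar procollagens other than Adamts2, 5 were tested, with 3 above and 2 below 0 and a median log2 fold change of 0.101, against 0.00627 over all genes. Adamts3, its closest paralogue with the same type of activity, was at 21.7 ± 3.07 CPM in Cux1 KO and 29.4 ± 3.86 CPM in WT females (SD, n = 4), with a log2 fold change of -0.44 (SE 0.134, adjusted p = 0.539). Adamts14, the other procollagen N-proteinase, was below 1 CPM in all groups and was not tested. Of 16 other ADAMTS proteases, 14 were tested, with 7 above and 7 below 0. The most abundant among them were Adamts7, at 89.3 ± 6.78 CPM in Cux1 KO and 98.0 ± 14.5 CPM in WT (log2 fold change -0.14, adjusted p = 0.812), and Adamts10, at 77.1 ± 15.5 and 58.4 ± 12.1 CPM (0.39, adjusted p = 0.706). Reelin is a substrate of ADAMTS2 and related enzymes. The 4 genes of reelin, its receptors and the adaptor DAB1 that they signal through were all below 0, with a median log2 fold change of -0.357 and none of them called: Vldlr was at -0.42 (adjusted p = 0.706), Reln at -0.38 (adjusted p = 0.922), Dab1 at -0.34 (adjusted p = 0.675) and Lrp8 at -0.03 (adjusted p = 0.979).

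Of 7 procollagen N-proteinases and fibrillar procollagens tested between P4 and E19, 4 were called lower (Adamts2, Adamts3, Col2a1 and Col5a1) and 1 higher (Col3a1, which also marks fibroblasts, with 1.94), where 46.3% of all genes were called. Adamts3 fell by 2.27 on the log2 scale (adjusted p = 5.34e-05). Of 14 other ADAMTS proteases tested, 5 were called lower, with Adamts7 at -3.71 and Adamts10 at -2.60, and 1 higher, Adamts5, at 2.03, which is 42.9% of them and near the share over all genes. Of the 4 reelin pathway genes, 1 (25.0%), the receptor gene Lrp8, was called lower, at -2.29, with 2 above and 2 below 0 and a median log2 fold change of -0.171.

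**Figure D4:**
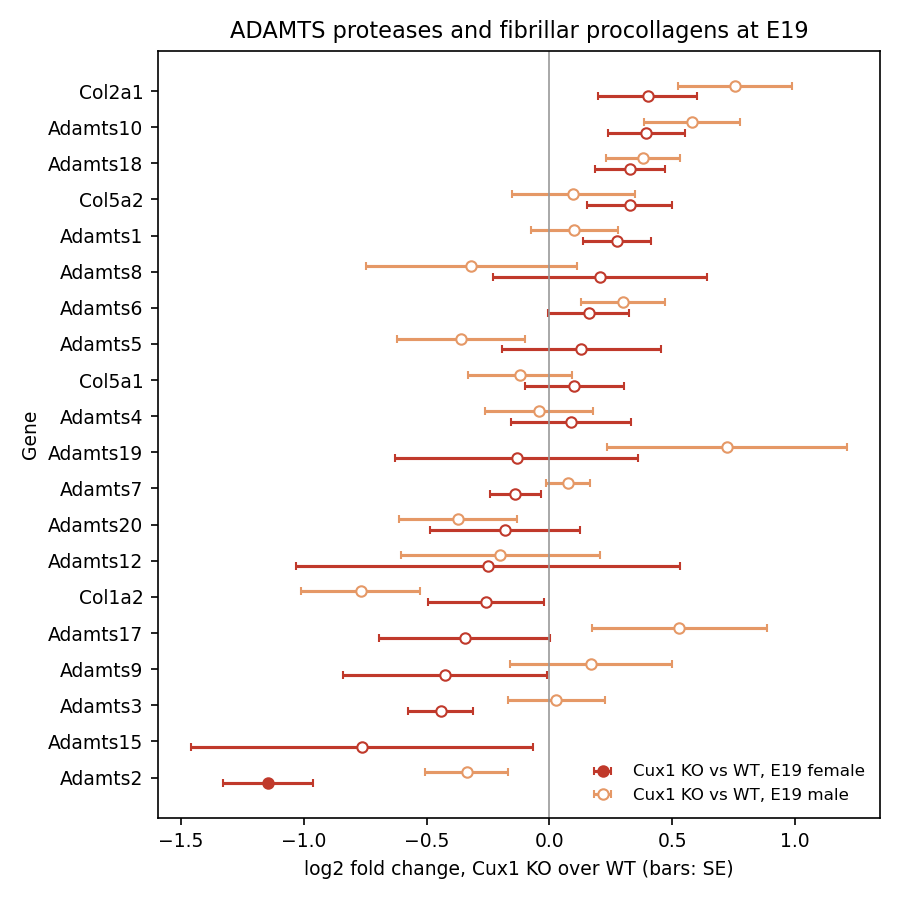
Log2 fold change of Cux1 KO over WT at E19 (x axis) for each tested ADAMTS protease and fibrillar procollagen, in females and in males (points; bars show the SE; filled points passed the call rule). The filled point is Adamts2 in females, at -1.14, and its male value is -0.34.

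Baz1a was nearly absent from both Cux1 KO libraries at P4. They held 1 and 2 counts of Baz1a, which is 0.0510 and 0.0494 CPM, while the WT males at P4 were at 30.8, 47.7 and 35.1 CPM and the Cux2 KO males at 27.6, 23.4 and 25.3 CPM. Pooled over the libraries, 3 counts stood against 5753 in WT, a level 736 times as high in WT (95% interval 252 to 3570, exact, counting error only), and against 3018 in Cux2 KO, 499 times as high (170 to 2420). The fitted log2 fold change against WT was -9.51 (SE 0.583), which depends on the prior count and is no bound. Its p was 1.6e-05 before and 0.0764 after adjustment, and 0.0764 was the smallest adjusted p of that comparison, in which edgeR called 0.0% of 19601 genes and 4021 had a p under 0.05 before adjustment. DESeq2 with no fold change prior called 15.3% of the genes it tested, Baz1a among them (log2 fold change -9.60, adjusted p = 7.58e-22), and edgeR with all groups of P4 in 1 fit called 11%, again with Baz1a (-9.49, adjusted p = 1.01e-05). Without replicate 2 of Cux1 KO, edgeR called 639 genes, among them Baz1a (-9.45, adjusted p = 0.0434), with the lone Cux1 KO library assumed to vary like the WT libraries. Against Cux2 KO males at P4, Baz1a was called at a log2 fold change of 8.95 for Cux2 KO over Cux1 KO (SE 0.482, adjusted p = 0.0491), where 2.98% of all genes were called, and this call was lost without any 1 of the 3 Cux2 KO libraries (adjusted p from 0.103 to 0.135). It was also lost without the filter and with the replicate block, and was kept in 4 of 6 other analyses.

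The same libraries lacked other genes. Of 6113 genes at 30 CPM or more in every WT male library at P4, 2 (0.0327%), Baz1a and Cldn11, a tight junction gene of oligodendrocytes, were at 3 counts or fewer in both Cux1 KO libraries, and 52 (0.851%) in at least 1 of them. At 10 CPM or more the numbers were 43 of 9757 (0.441%) in both and 393 (4.03%) in at least 1; both thresholds and these names were chosen after the values were seen. In the Cux2 KO males at P4, with 3 libraries, 0 of the 6113 genes were at 3 counts or fewer in every library and 2 in at least 1. The Cux1 KO libraries detected 17049 and 19115 genes, the 2 lowest numbers of the series, against 20844 to 22546 in the WT males and 21930 to 23736 in the Cux2 KO males at P4. Of 14 marker sums, 11 separated these libraries from the WT males at P4. They were lower for ependymal markers (0.0510 to 0.0987 against 26.8 to 79.1 CPM), mural cell markers (0.255 to 56.8 against 254 to 430 CPM), endothelial markers (0 to 37.4 against 113 to 238 CPM), microglial markers (13.7 to 15.1 against 43.2 to 60.98 CPM), the oligodendrocyte lineage to which Cldn11 belongs (1180 to 1258 against 2144 to 3035 CPM), interneurons (180 to 321 against 382 to 581 CPM), intermediate progenitors (72.8 to 118 against 191 to 260 CPM) and cell cycle genes (469 to 1071 against 1246 to 1518 CPM). They were higher for upper-layer neurons, the labelled cell type (1360 to 1949 against 919 to 1122 CPM), for layer 4 neurons (346 to 361 against 175 to 223 CPM) and for all excitatory neurons (425 to 544 against 54.6 to 171 CPM). By gene, 8 of 12 upper-layer, 2 of 4 layer 4 and 6 of 6 excitatory neuron markers were above 0. In contrast, the astrocyte and radial glia sums overlapped, at 5847 to 8421 against 4745 to 6302 CPM. The part of these levels and of the number of genes detected in the result for Baz1a was not tested. With 2 libraries against 3, sums can also separate by order alone, and how often this occurs over all genes was not counted.

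Most genes beside Baz1a on chromosome 12 were present in these libraries. Cfl2, an actin-severing protein gene 29167 bp away, was at 250 to 337 CPM in the Cux1 KO libraries and 220 to 270 CPM in the WT males at P4, and Snx6 was at 241 to 252 and 204 to 313 CPM. Of the 12 other genes within 300 kb that were examined, 2700097O09Rik, 31306 bp away, was at 0 counts in 1 of the Cux1 KO libraries and 175 in the other, against 1004 to 1870 in those of WT, and the others had at least 268 counts in each Cux1 KO library.

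Rrad was also low in the Cux1 KO libraries at P4. It had 0 and 1 counts there, against 2.36, 3.79 and 4.83 CPM in WT males and 1.70, 4.40 and 2.55 CPM in Cux2 KO males. The pooled 1 count stood against 583 in WT, a ratio of 224 (95% interval 40 to 8860, counting error only), and against 402 in Cux2 KO, a ratio of 199 (35.6 to 7890). A count of 0 also occurred in 1 WT female library at P4, of 26654499 counts in all. Rrad passed neither test (adjusted p = 0.0828 against WT and 0.0541 against Cux2 KO, edgeR). DESeq2 with no fold change prior called it in both (adjusted p = 1.95e-05 and 5.75e-05), with 15.3% and 16.2% of all genes. Adamts2, near 0 in every group at P4, had 0 counts in the Cux1 KO libraries and 9 in the 3 WT male libraries, which was too low to test, and the interval of the ratio of WT to Cux1 KO (from 0.758 upward, counting error only) includes no difference. Against the Cux2 KO males, with 121 counts that all came from replicate 2, the interval ran from 16 upward, and the other 2 Cux2 KO libraries were at 0 as well.

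At E19 neither Baz1a nor Rrad passed the test in Cux1 KO. Baz1a was at 19, 15.0, 17.2 and 22.9 CPM in the females and 16.2, 22.9, 17.6 and 17.7 CPM in the males, and its log2 fold changes over WT were -0.02 (SE 0.154, 95% interval -0.324 to 0.278, adjusted p = 0.983) and -0.19 (SE 0.141, 95% interval -0.468 to 0.0846, adjusted p = 0.698). Rrad was at 0.726, 1.55, 0.603 and 0.483 CPM in the females (log2 fold change -0.99, adjusted p = 0.735) and 0.221, 1.34, 1.35 and 1.23 CPM in the males (0.32, adjusted p = 0.888). Each of these groups overlapped WT.

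The other ISWI and RGK genes were detected in the Cux1 KO libraries at P4. Of the 10 genes of ISWI complexes other than Baz1a, all were tested, with 1 above and 9 below 0 and a median log2 fold change of -0.765, against -0.182 over all genes; edgeR called 0.0% of all genes in this comparison, so the lack of calls says nothing about a list. Smarca5, the ATPase partner of BAZ1A, was at 98.2 ± 4.17 CPM in Cux1 KO (n = 2) and 143 ± 20.7 CPM in WT males (n = 3), with a log2 fold change of -0.56 (SE 0.204, adjusted p = 0.219). Chrac1 was at 51.7 ± 24.4 CPM in Cux1 KO and 51.6 ± 1.38 CPM in WT males, and Pole3 at 85.1 ± 33.0 and 106 ± 3.89 CPM (log2 fold change -0.33, adjusted p = 0.603); both encode histone-fold subunits of the CHRAC complex. Among the RGK GTPases, Gem was at 23.5 ± 18.7 CPM in Cux1 KO and 23.2 ± 11.01 CPM in WT (log2 fold change 0.03, adjusted p = 0.988) and Rem2 at 5.20 ± 0.218 and 11.1 ± 2.29 CPM (-1.10, adjusted p = 0.302). Of 9 calcium channel subunits, the targets of RGK proteins, 5 were above 0. However, 1 of the 9 had 0 counts over both Cux1 KO libraries and passed the filter on low counts through WT alone. No direction or median is therefore read from these subunits. Their summed level was 187 to 202 CPM in Cux1 KO and 85.3 to 119 CPM in WT males, without overlap. A sum follows its most abundant genes, and by gene 5 were above and 4 below 0. The marker sums of all excitatory neurons were higher in these libraries too (425 to 544 against 54.6 to 171 CPM), and their part was not tested. Of 14 other ADAMTS proteases tested, 7 had 3 counts or fewer over both Cux1 KO libraries and passed the filter on low counts through WT alone, so no direction or median is read from this list.

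The mean level of Baz1a in Cux2 KO was below that in WT in each sex at both stages, and none of these differences passed the adjusted threshold of edgeR. At E19 the Cux2 KO males were at 11.6, 15.8, 12.2 and 8.80 CPM, each below each WT male (18.3 to 22.8 CPM). The log2 fold change was -0.81 (SE 0.181, adjusted p = 0.237), where 0.121% of all genes were called, and DESeq2 with no fold change prior called Baz1a (-0.80, adjusted p = 0.013) with 0.469% of all genes. The Cux2 KO females at E19 were at 15.9, 18.04, 14.6 and 6.06 CPM, overlapping the WT females, with -0.46 (adjusted p = 0.977). With 1 library left out, this female value ran from -0.6125 to -0.2174. At P4 the Cux2 KO females were at 18.9, 31.3 and 22.8 CPM, each below each WT female (32.6 to 55.5 CPM), with a log2 fold change of -0.78 (SE 0.289, adjusted p = 0.658), and edgeR called 0.0% of all genes there. The Cux2 KO males at P4 were at 27.6, 23.4 and 25.3 CPM, each below each WT male, with -0.54 (SE 0.224, adjusted p = 0.872; 0.0% of all genes called). Libraries this few can separate by order alone. The share of all genes that separated in these comparisons was not counted, so no effect is read from the separation.

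Over both sexes the log2 fold change of Baz1a in Cux2 KO was -0.63 at E19 (SE 0.171, 95% interval -0.969 to -0.299, adjusted p = 0.234, with 0.101% of all genes called) and -0.66 at P4 (SE 0.188, 95% interval -1.02 to -0.288, adjusted p = 0.571, with 0.0528% called). The tests of a difference between the sexes gave adjusted p = 0.979 at E19 and 0.936 at P4. Leaving out any 1 library left these values at -0.717 to -0.528 at E19 and at -0.751 to -0.530 at P4. Cux2 KO males at E19 were also each below each Cux1 KO male, at a log2 fold change of -0.62 (SE 0.188, adjusted p = 0.201), where 0.378% of all genes were called. At E19 none of the 14 marker sums separated Cux2 KO from WT in either sex. In P4 females 3 of 14 did: mural cell markers were at 359 to 384 CPM in Cux2 KO and 109 to 177 CPM in WT, cell cycle genes at 1219 to 1581 and 1620 to 1944 CPM, and intermediate progenitor markers at 142 to 211 and 235 to 284 CPM. In P4 males 1 of 14 did, with ependymal markers at 129 to 219 CPM in Cux2 KO and 26.8 to 79.1 CPM in WT. The part of these levels in the result for Baz1a was not tested. With so few libraries, such sums and the values of Baz1a can also separate by order alone. How often this occurs over all genes was not counted. Of the 10 other ISWI genes tested in Cux2 KO over both sexes, 0 were called at either stage, with 7 below 0 at each; Smarca5 was at -0.14 at E19 (adjusted p = 0.636) and 0.09 at P4 (adjusted p = 0.998).

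Rrad in Cux2 KO was at 1.85, 2.49, 0.846 and 0.876 CPM in females and 1.45, 0.648, 1.21 and 1.08 CPM in males at E19, and at 1.08, 3.20 and 2.56 CPM in females and 1.70, 4.40 and 2.55 CPM in males at P4, overlapping WT in each case. Its log2 fold changes over WT were 0.11 over both sexes at E19 (SE 0.330, adjusted p = 0.968) and -0.14 at P4 (SE 0.809, adjusted p = 0.999). The 95% intervals ran from -0.534 to 0.760 at E19 and from -1.73 to 1.44 at P4.

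The pathways around Rrad, Baz1a and Agmat were read against the 46.3% of all genes called in WT between P4 and E19 and the 51.7% between P7 and E19. All 9 calcium channel subunits tested had a negative log2 fold change for P4 over E19 and 7 (77.8%) were called lower, among them Cacnb3 (-3.28, adjusted p = 2.11e-10) and Cacna1e (-3.04, adjusted p = 1.28e-06). Of the 2 RGK GTPases other than Rrad tested between P4 and E19, 0 were called, with 1 above and 1 below 0. At P7 over E19, Rrad and Gem (1.25, adjusted p = 0.000217) were called higher, and 1 of the 3 RGK GTPases other than Rrad was below 0. Rem1 was at 0 in all 4 WT male libraries at E19 and was not tested between P4 and E19. It passed the filter only through its counts at P7 and is not counted among the calls. Of the 10 ISWI genes other than Baz1a, 3 (30.0%) were called between P4 and E19, with Chrac1 higher (1.69, adjusted p = 1.91e-07) and Baz1b (-1.81) and Baz2a (-2.11) lower. Of the 13 genes of polyamine and agmatine metabolism tested, 2 were called higher and 2 lower between P4 and E19 (30.8%); Oaz1 and Azin1, which regulate ornithine decarboxylase, were the most abundant and were at 0.25 (adjusted p = 0.181) and 0.04 (adjusted p = 0.765).

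RGK genes such as Rem2 are among the genes that neuronal activity induces, so other activity-regulated genes were followed as well. Of 14 immediate early genes tested between WT P4 and E19, 6 were called higher and 2 lower (57.1%, against 46.3% of all genes), with Fos at 4.08 (adjusted p = 4.24e-08) and Egr1 at 1.88 (adjusted p = 8.85e-06). Of 8 late activity-regulated genes, 2 were called higher and 3 lower (62.5%). Of the same 8 late genes, 1 was called in Cux1 KO against WT at E19, in females, where 0.0576% of all genes were called, and in males, where 0.0979% were; 4 were above and 4 below 0 in each sex. It was Nrn1, which encodes neuritin, higher by 0.87 in females (adjusted p = 0.0092) and by 0.80 in males (adjusted p = 0.0401), at 32.6 ± 1.73 against 17.8 ± 1.74 CPM in females (SD, n = 4). At P4 Fos was at 265 ± 1.78 CPM in Cux1 KO (n = 2) and 347 ± 139 CPM in WT males (n = 3). Of the 13 immediate early genes tested there, 4 were above and 9 below 0, and 1 had 0 counts over both Cux1 KO libraries. Of the 8 late genes, 7 were above 0 (median log2 fold change 1.05, against -0.182 over all genes), with sums of 114 to 245 CPM in Cux1 KO and 66.2 to 99.6 CPM in WT males. In this comparison edgeR called 0.0% of all genes. Marker sums of all excitatory neurons were also higher in these Cux1 KO libraries (425 to 544 against 54.6 to 171 CPM), and their part was not tested.

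Likeness of pattern was measured as the Pearson correlation of log2 CPM after subtraction of each stage's mean, over all 43 libraries, against 13240 genes with a mean of 5 CPM or more for Adamts2 and Baz1a and 13241 for Rrad. The libraries share depth, cell makeup and genotype groups, so these values describe and are not tested. The genes most like Adamts2 were Sertad4 (0.646), Plppr3 (0.636), Dbn1 (0.63), Cntn2 (0.619) and Smpd3 (0.601), and without the Cux1 KO libraries at P4 these values were 0.634, 0.648, 0.709, 0.656 and 0.658. Adamts2 stayed at or below 1.88 CPM in every library at P4 and P7, so its pattern within those stages rests on few, uneven counts. By rank (Spearman), the likeness of these genes to Adamts2 was lower, at 0.421 to 0.521. The genes most like Rrad were Fan1 (0.802), Stab1 (0.793), Disp1 (0.77), Esyt1 (0.769) and Mmp11 (0.757), at 0.502 to 0.666 without those libraries. The genes most like Baz1a were Arhgap19 (0.961), Exo1 (0.96), Lrrc45 (0.96), Dnmbp (0.958) and Fancg (0.957). Their likeness rested on the Cux1 KO libraries at P4, where each of these genes had 0 to 5 counts: without them the values were 0.345, 0.369, 0.275, 0.314 and 0.322. In WT males at P4, Arhgap19 was at 25.6 to 40.8 CPM and Lrrc45 at 26.8 to 39.2 CPM. Among the members, Baz1a and Rrad were at 0.614 with and -0.164 without those libraries, Adamts2 and Baz1a at 0.198 and 0.102, and Adamts2 and Rrad at 0.251 and 0.180.

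**Figure D5:**
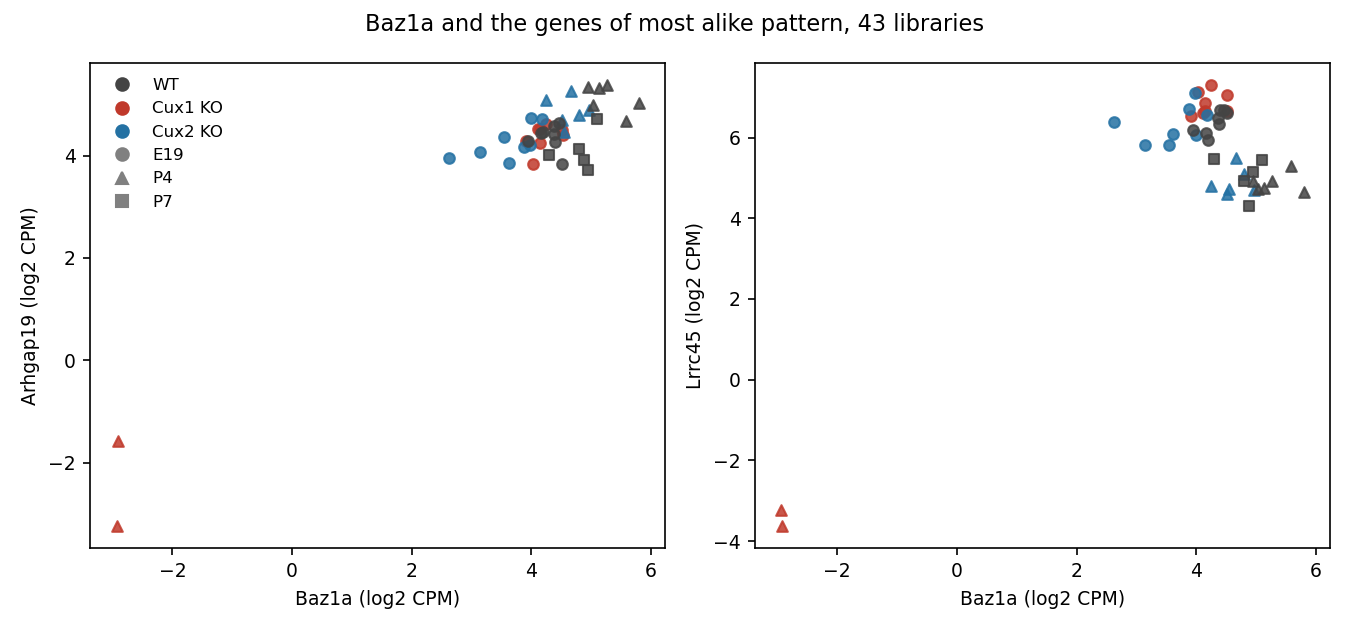
Log2 CPM of Baz1a (x axis) against Arhgap19 and Lrrc45 (y axes), 1 point per library, 43 libraries, coloured by genotype and shaped by stage. The 2 Cux1 KO libraries at P4 lie at the lower left of both panels, and without them the stage-centred correlations were 0.345 and 0.275.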

How the data were processed

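Gene counts of 43 libraries were used as deposited by the authors, who aligned single-end reads to GRCm39 with hisat2 (Rhisat2) on sex-specific masked genomes, removed highly duplicated reads (removeDupReads) and counted reads per gene with featureCounts (Rsubread, Ensembl annotation). No molecular identifiers were used, so intervals on counts cover counting error only. Whether libraries of a group came from separate animals was not given, so p-values measure the spread between these libraries.

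Counts were tested with edgeR 4.0.16 (glmQLFit, glmQLFTest; TMM, filterByExpr) in R 4.3.3, with only the groups compared in each fit and Benjamini-Hochberg adjustment over all genes tested. Fits over both sexes had sex as a term. Levels are CPM after TMM over all libraries. Standard errors were derived from the quasi-likelihood F, and 95% intervals from a normal approximation. Alternatives were DESeq2 1.42.0 with and without its fold change prior, DESeq2 size factors, no filter, all groups of the stages in 1 fit, the replicate number as a block, and each library left out. Tests were checked on simulated counts. Gene positions and exons came from GENCODE M39.

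The members and lists were chosen with earlier results of these data known. Named are the 4 members and the 5 genes of most alike pattern. Further names were taken from the list members called in a KO comparison with at least 3 libraries per group and from the 2 most abundant genes of each list. Not every such list member is named: 1 interneuron marker was called lower in Cux1 KO males at E19 and is not named. Other list members and neighbours named (such as Adamts14, Rem1, Baz1b and Baz2a) were chosen after their values were seen.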

Additional observations from a re-analysis of the deposited data

Results flagged for a closer look

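Of 19 groups of 4 libraries in which a member varied, 2 held a library past Dixon's ratio at the 95% level, and chance alone flags about 5% of groups. In WT E19 males, the highest library for Agmat was at 0.114 CPM, from 2 counts, while the other 3 were at 0; any value beside 3 zeros passes this ratio, and 0.114 CPM is below the 0.149 to 0.235 CPM that a count of 0 allows at E19, so this library cannot be told from the others. In Cux1 KO E19 males, the lowest library for Rrad was at 0.221 CPM, while the others were at 1.23 to 1.35 CPM.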

How the results depend on the processing

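Over 936 values of the members under other settings, most kept their direction and their side of the thresholds (318 of 343 under other analyses, 538 of 593 with 1 library left out). The cause of the changes was not tested. Adamts2 in Cux1 KO at E19 lost its call in females with the replicate block (-1.16, adjusted p = 0.0866) and with all groups in 1 fit (-1.14), and over both sexes with DESeq2 size factors (-0.741, adjusted p = 0.052), the replicate block (-0.731, adjusted p = 0.061) and all groups in 1 fit (-0.739, adjusted p = 0.145); with 1 library left out it ranged from -1.27 to -0.979 and from -0.841 to -0.631. In Cux1 KO males at P4, DESeq2 with no fold change prior, DESeq2 with its prior and all groups in 1 fit called Baz1a (-9.60, -7.30 and -9.49) and Rrad (-7.78, -3.75 and -7.65), and 1 library left out gave -9.63 to -9.28 and -10.3 to -7.11. For Cux2 KO over Cux1 KO males at P4, these analyses called Rrad (7.47, 3.42 and 7.34; 6.78 to 9.67 with 1 library left out), and Baz1a lost its call without the filter (8.96, adjusted p = 0.0502) and with the block (8.92), at 8.88 to 9.01 with 1 library left out. The fitted values against Cux1 KO at P4 rest on 3 pooled Cux1 KO counts of Baz1a and 1 of Rrad, depend on the analysis and are no bounds. DESeq2 called Baz1a in Cux2 KO males at E19 with no prior (-0.802) and with its prior (-0.573). Baz1a at WT P4 over E19 fell below the fold threshold with DESeq2 (0.976 with no prior, 0.971 with its prior), its size factors (0.971), the block (0.914) and all groups in 1 fit (0.960), and ranged from 0.862 to 1.08 with 1 library left out; Rrad there was called with all groups in 1 fit (1.26) and ranged from 1.06 to 1.67.

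Among uncalled differences the sign turned for Rrad in Cux2 KO at P4 over both sexes with the replicate block (0.0438), and with 1 library left out for the following ranges. For Baz1a these were Cux1 KO females at E19 (-0.136 to 0.0602), sex in WT at P4 (-0.0592 to 0.420) and P7 (-0.166 to 0.211) and the Cux2 KO by sex difference at P4 (-0.490 to 0.0140). For Adamts2 they were sex in WT at P7 (-7.76 to 0.953) and Cux2 KO over Cux1 KO males at E19 (-0.273 to 0.141). For Rrad they were sex in WT at P7 (-0.749 to 1.14), Cux2 KO at E19 in females (-0.491 to 0.139) and over both sexes (-0.0186 to 0.281), Cux2 KO at P4 in females (-0.576 to 1.21) and over both sexes (-0.425 to 0.343), the Cux2 KO by sex difference at P4 (-0.267 to 1.52), Cux2 KO over Cux1 KO males at E19 (-0.242 to 0.271) and WT P7 over P4 (-0.0661 to 0.868).

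Libraries of the same replicate number mostly did not deviate together. The correlations of their deviations from the group means ran from -0.153 to 0.300, and in no comparison with 3 or more pairs was each above 0.1. Between WT females and males at P7, with 2 pairs, both were above 0.1, at 0.195 and 0.273. The numbers were not taken as pairs, and the block changed no calls beyond those above. The number of genes called differed between analyses: 10 with edgeR and 47 with DESeq2 with no prior for Cux1 KO females at E19, and 0 and 3251 for Cux1 KO males at P4. For the P4 males, edgeR with all groups in 1 fit called 2597. The genes tested there also differed: 19601 with edgeR, 21209 with DESeq2 and 23658 with all groups in 1 fit. Thresholds for genes near 0 and the likeness without the Cux1 KO libraries at P4 were chosen after seeing the data. Counts were few for Rrad at E19, with at most 109 in a group, and for Agmat, with 2 in all libraries.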
